A study of Drosophila melanogaster with 6 samples.

Results

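The gap genes of the Drosophila trunk and of the embryo's ends were examined: hb, Kr, kni, knrl, gt, tll and hkb. All probe sets whose platform annotation gave exactly 1 gene symbol equal to one of these names were taken, which gave 8 probe sets for the 7 genes, out of 11982 genes measured under a single symbol. The gene gt had 2 probe sets and each of the others had 1. Transcript levels came from 6 Affymetrix arrays, each hybridized with total RNA from a pool of dechorionated embryos that were 2 to 4 h old. In the brakeless group (3 arrays), mothers of genotype FRT2R G13 bks278/FRT2R G13 ovoD1 carried germline clones homozygous for bks278, a strong allele of brakeless (gene symbol sbb), and were mated to FRT2R G13 bks278/CyO males. In the control group (3 arrays), FRT2R G13/FRT2R G13 ovoD1 mothers carried germline clones of the unmutagenized chromosome and were mated to FRT2R G13 males. Both groups therefore share the FRT2R G13 chromosome and the ovoD1 chromosome in the mothers' body, ovoD1 being a dominant mutation that blocks egg production outside the clones. By the cross, only some brakeless embryos also lacked the zygotic gene, the others having the CyO balancer, so each brakeless pool was mixed. Nothing in the labels names a batch.

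Gap genes are the zygotic genes that first divide the embryo along its length. Their products are transcription factors that are switched on by maternal gradients such as Bicoid and Caudal, or at the ends by Torso receptor signalling, and that then repress each other to sharpen their domains. Brakeless is known as a nuclear co-repressor partner of Atrophin, and it has been linked to repression by Tailless, which keeps Kr and kni out of the posterior end. Whether the total amount of gap gene transcript differs between the groups is the question this comparison addresses. By the crosses, loss of maternal Brakeless cannot be told apart here from zygotic loss in some embryos or from the CyO balancer in others.

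No gap gene was shown to be higher or lower in brakeless embryos. Of the 8 probe sets, 0 passed the test (limma, Benjamini-Hochberg adjusted p under 0.05 over 18769 probe sets), where 0.139% of all probe sets did, and 0 of 8 had an unadjusted p under 0.05, where 4.78% of all probe sets did. In 0 of 8 did the 3 brakeless arrays lie apart from the 3 control arrays, against 10.1% of all probe sets. The limma adjusted p was 0.998 for each of them. The brakeless mean was higher for hb, Kr and both gt probe sets and lower for kni, knrl, tll and hkb. The median difference over the 8 probe sets was 0.03 on the log2 scale, and that over all probe sets was 0.00221. Each difference below is the brakeless mean minus the control mean of the deposited log2 values, so that 1 unit is a 2-fold change. RNA of whole pooled embryos gives a total, so fewer expressing cells and less RNA per cell cannot be told apart, and a shifted domain of the same size leaves the total as it was.

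The arrays were alike in their median log2 level, which ran from 3.59 to 3.73. Their mean correlation with the other arrays, over all probe sets, was 0.979 to 0.986 for 5 arrays and 0.964 for control replicate 3. The targeted gene sbb, on its brightest probe set, 1635211_at, had a mean level of 4.795 ± 0.47 (SD, n = 3) in the brakeless group against 6.26 ± 0.39 (SD, n = 3) in the control group, with no overlap between the arrays and a limma adjusted p of 0.320. Of the blastoderm and gastrula genes used to check the tissue, twi, sna and zen were all brighter than the median probe set (3 of 3). Of the 6 ovary and eggshell genes 5 were also above the median level of 3.67, by less, with brakeless means between 2.89 and 4.70 over the list, against 7.30 to 7.84 for the 3 blastoderm genes.

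**Figure D1:**
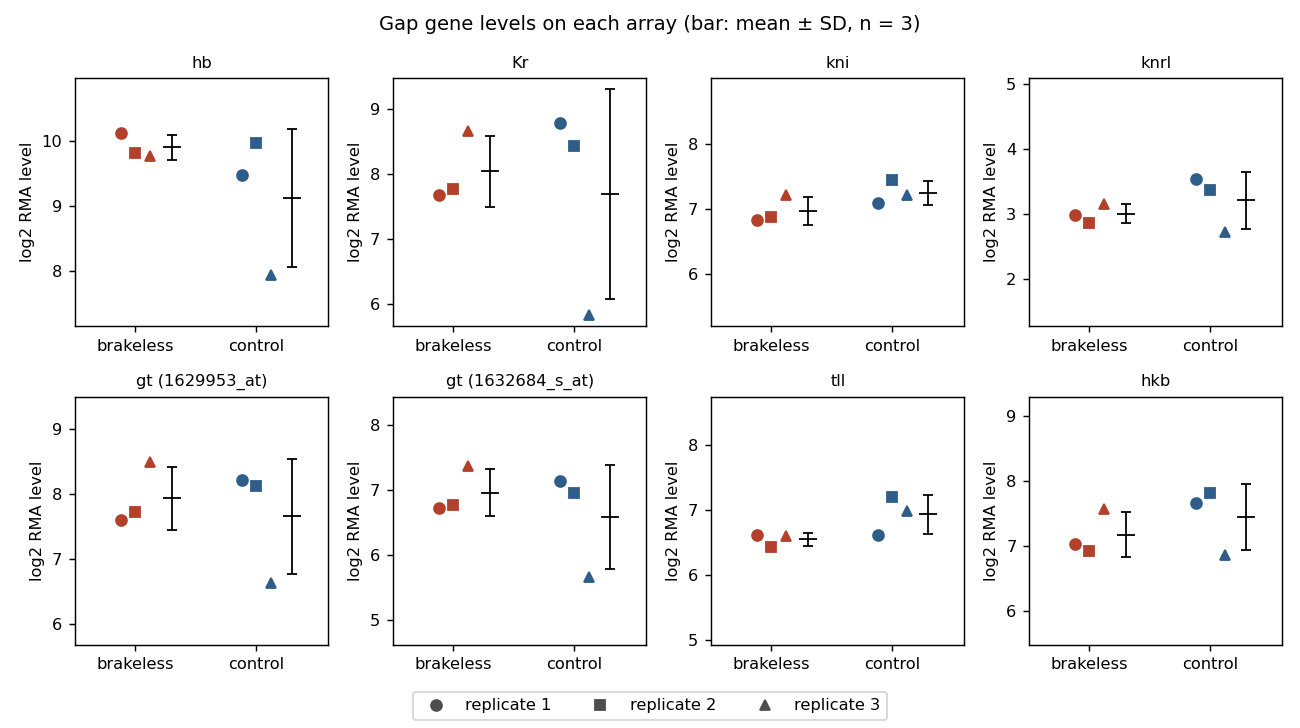
Log2 RMA level of each gap gene probe set (vertical axis, the same length in every panel) on the 3 brakeless and 3 control arrays, with marker shapes for the replicate number and the mean ± SD beside each group (n = 3). Control replicate 3 (blue triangle) is the lowest array for hb, Kr, knrl, both gt probe sets and hkb, but not for kni or tll.

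Among the trunk genes, hb encodes the zinc finger protein Hunchback, which is supplied both maternally and zygotically and patterns the anterior region. It lies on 3R at 8690980 to 8697822 (RefSeq, Release 6 plus ISO1 MT). The log2 level of hb was 10.12, 9.82 and 9.76 on brakeless replicates 1, 2 and 3. On control replicates 1, 2 and 3 it was 9.47, 9.97 and 7.94. Control replicate 3 lay far below the other 5 arrays, and control replicate 2 lay between the first and second brakeless replicates, so the groups overlapped. The difference was 0.78 (SE 0.51, 95% interval -0.47 to 2.03), the largest in size among the 8 probe sets, which as a ratio of brakeless to control is 1.72 with an interval from 0.720 to 4.08. Without control replicate 3 it was 0.18 (interval -0.32 to 0.69). Of all probe sets, 95.9% had a difference no larger in size than that of hb.

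Kr encodes Krüppel, a zinc finger repressor of the central region whose domain is bounded by repressors that include Hunchback, Giant and Tailless. It lies on 2R at 25226611 to 25231394, on the chromosome arm that carries sbb and 6.87 Mb from that gene. Its log2 level was 7.68, 7.78 and 8.66 in the brakeless replicates and 8.79, 8.43 and 5.84 in the control replicates, in the order 1, 2, 3. Brakeless replicate 3 stood with control replicates 1 and 2, while control replicate 3 was the lowest array of all. The difference was 0.35 (SE 0.80, interval -1.61 to 2.32). As a ratio of brakeless to control this is 1.28, with an interval from 0.328 to 4.98, so changes of several fold either way were not detectable for Kr with these arrays. Without control replicate 3 the difference turned to -0.57 (interval -1.41 to 0.27, limma adjusted p = 0.971).

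The gene gt encodes Giant, a bZIP repressor expressed in an anterior and a posterior domain that flank Krüppel. It lies on the X chromosome at 2427113 to 2428967. Its log2 level on probe set 1629953_at was 7.597, 7.72 and 8.48 in the brakeless replicates and 8.21, 8.12 and 6.64 in the control replicates. On 1632684_s_at it was 6.73, 6.78 and 7.37, and 7.14, 6.96 and 5.67. The probe sets ranked the 6 arrays in the same order, with brakeless replicate 3 at the top and control replicate 3 at the bottom, and after each was centred on its own mean they differed by a root mean square of only 0.10 log2 units over the arrays. Their differences were 0.28 (SE 0.48, interval -0.90 to 1.45) and 0.37 (SE 0.42, interval -0.66 to 1.402). Without control replicate 3 both turned, to -0.23 (interval -0.96 to 0.49) and -0.09 (interval -0.66 to 0.49).

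The genes kni and knrl encode Knirps and Knirps-like, related proteins with a nuclear receptor type of DNA-binding domain, of which Knirps represses other gap genes in the abdomen. They are neighbours on 3L, kni at 20692330 to 20695378 and knrl at 20597141 to 20620659, 71.7 kb apart with 1 other protein-coding gene annotated between them. The knrl gene spans 23.5 kb, 7.71 times the 3.05 kb of kni, and is longer than 93.8% of the annotated protein-coding genes or as long. Long introns of knrl are known to limit its expression in the rapid nuclear cycles of the blastoderm. The log2 level of kni was 6.82, 6.87 and 7.21 in the brakeless replicates and 7.08, 7.44 and 7.20 in the control replicates. Brakeless replicate 3 reached the lower control arrays, and the other brakeless replicates lay below every control array. The difference of kni was -0.28 (SE 0.16, interval -0.66 to 0.11), a ratio of 0.826 with an interval from 0.632 to 1.08. The log2 level of knrl was 2.996, 2.87 and 3.16 in the brakeless replicates and 3.55, 3.37 and 2.72 in the control replicates. All 6 values lie below the median probe set (3.67), so knrl was not shown to be above background, where RMA compresses differences. Its difference was -0.21 (SE 0.23, interval -0.77 to 0.36). It was -0.45 without control replicate 3 (interval -0.80 to -0.10, unadjusted p = 0.0208 and adjusted p = 0.736 in limma).

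At the ends of the embryo, tll encodes Tailless, an orphan nuclear receptor that represses trunk gap genes, and lies on 3R at 30852315 to 30854400. Its log2 level was 6.62, 6.44 and 6.59 in the brakeless replicates and 6.61, 7.20 and 6.99 in the control replicates. The groups overlapped only through control replicate 1, which stood level with brakeless replicate 1 to within 0.01. The difference was -0.39 (SE 0.17, interval -0.80 to 0.03), a ratio of 0.765 with an interval from 0.573 to 1.02, and had the lowest unadjusted p among the 8 probe sets (0.0650 in limma, adjusted p = 0.998). It kept its sign when each array in turn was left out, with values from -0.55 without control replicate 1 to -0.25 without control replicate 2. The former had an interval from -0.90 to -0.19, with an unadjusted p of 0.0105 and an adjusted p of 0.655 in limma.

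The gene hkb encodes Huckebein, a zinc finger repressor that sets the limits of the mesoderm and of the gut primordia at both poles, and lies on 3R at 4345015 to 4346646. Its log2 level was 7.03, 6.92 and 7.57 in the brakeless replicates and 7.65, 7.81 and 6.87 in the control replicates. Control replicate 3 was again the lowest array and brakeless replicate 3 came close to the other controls. The difference was -0.27 (SE 0.30, interval -1.003 to 0.46), a ratio of 0.830 with an interval from 0.499 to 1.38. Without control replicate 3 it was -0.56 (interval -1.12 to 0.00251, limma adjusted p = 0.895).

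**Figure D2:**
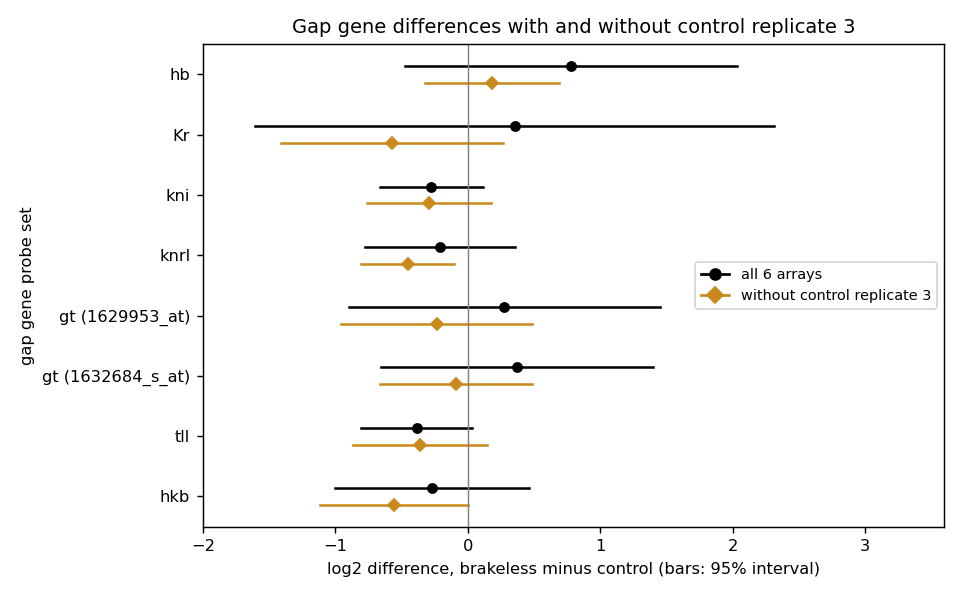
Log2 difference, brakeless minus control (horizontal axis), of the 8 gap gene probe sets with its 95% limma interval, from all 6 arrays (black circles) and without control replicate 3 (ochre diamonds). With all arrays 4 probe sets lie on each side of 0, and without control replicate 3 hb alone stays positive.

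With control replicate 3 left out, 7 of the 8 probe sets had a lower brakeless mean, where 47.3% of probe sets brighter than the median did. Those of kni, knrl, tll and hkb were already lower with all 6 arrays. As control replicate 3 was the lowest array in 6 of the 8, its removal lowers their differences by construction, and the count adds nothing beyond that. The 2 gt probe sets measure the same gene and count as 1 observation. None of the 8 passed the test in that setting (0.176% of all probe sets did), and 1 of 8, the dim knrl, had an unadjusted p under 0.05 in limma, against 5.55% of all probe sets. The sign of Kr and gt in this comparison therefore rested on 1 control array, while kni (-0.29) and tll (-0.36) read nearly the same without it.

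The spread between arrays differed strongly from gene to gene. The residual SD within groups was 1.202 log2 units for Kr, 0.76 for hb, and 0.71 and 0.62 for the gt probe sets. It was 0.43 for hkb, 0.32 for the dim knrl, 0.22 for tll and 0.20 for kni, against a median of 0.32 over the probe sets brighter than the median. Set beside probe sets within 0.5 log2 units of the same mean level, Kr was at least as variable as 93.2% of 1454, and hb as 92.0% of 1420. The dim knrl was at least as variable as 97.0% of the 8026 probe sets near its level. By the same measure tll was at least as variable as only 12.1% of 810, and kni as 11.3% of 981. The control group had the larger SD in 7 of the 8 probe sets, kni being the exception. Leaving out the dim knrl this is 6 of 7, where 66.5% of probe sets brighter than the median did.

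**Figure D3:**
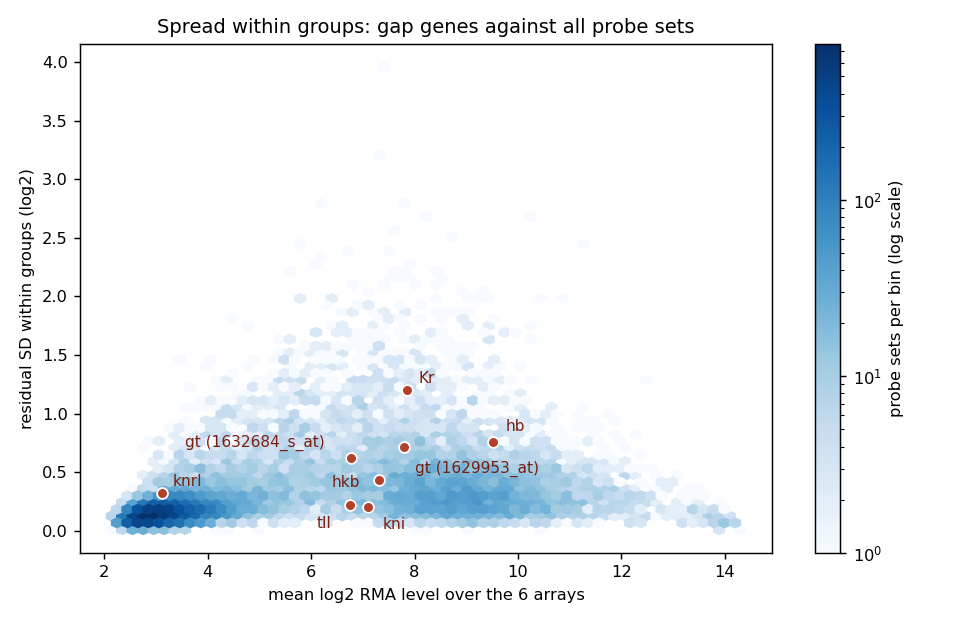
Residual SD within groups (vertical axis, log2) against the mean log2 RMA level over the 6 arrays (horizontal axis) for all probe sets, shaded by their number per bin, with the gap gene probe sets as red points. Kr (SD 1.202), hb (0.76) and the dim knrl (0.32) lie high for their level, and tll (0.22) and kni (0.20) lie low.

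Control replicate 3 held much of that spread. Its deviation from the control mean made up 61.0% of the within-group sum of squares for hb, 59.1% for Kr, 51.3% and 54.9% for the gt probe sets, 57.2% for knrl and 44.1% for hkb, against 0.982% for kni and 1.38% for tll. An array also pulls the mean of its own group, so such a share stays well below the whole sum even for a lone outlier. Control replicate 3 was the lowest of the 6 arrays in 6 of the 8 probe sets, and in 5 of the 7 without the dim knrl, where it was the lowest in 25.9% of probe sets brighter than the median and the highest in 32.1%. Against the mean log2 level of control replicates 1 and 2, it read 6.84-fold lower for Kr, 3.44-fold lower for hb, and 2.89-fold and 2.60-fold lower for gt. It read 1.82-fold lower for hkb and 1.67-fold lower for the dim knrl. For kni (a gap of -0.06) and tll (0.08) it stood with the other controls. Among probe sets brighter than the median, 2.65% had a gap as far down as that of Kr, 6.69% as that of hb and 15.2% as that of hkb, whereas 39.2% were at or below kni and 48.3% at or below tll. Among the 8 probe sets, those of kni and tll did not share the low level of that array.

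Within the brakeless group, replicate 3 was the highest array in 6 of the 8 probe sets, and in 5 of the 7 without knrl, where this held for 38.5% of probe sets brighter than the median. It exceeded the mean of brakeless replicates 1 and 2 by 0.94 for Kr, 0.83 and 0.62 for gt, 0.59 for hkb and 0.37 for kni. For tll the gap was 0.07, and hb went the other way at -0.21. Among all pairs of the 7 genes, kni and tll had the closest profiles after centring, with a root mean square distance of 0.15 log2 units, and Kr and tll the farthest, at 1.10. Next closest were knrl and hkb, at 0.16. The distance is not scaled and so depends on the range over the 6 arrays, which was 0.62 for kni, 0.77 for tll and 2.95 for Kr.

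Genes that follow the age of the embryos also differed between the arrays. The 5 genes of the cellularization list (nullo, Sry-alpha, bnk, slam and Z600) were chosen for the stage of their expression, when membranes enclose the blastoderm nuclei. Their median deviations from their 6-array means were -0.64, -0.33 and -0.01 in brakeless replicates 1, 2 and 3 and 0.45, 0.35 and -0.14 in the control replicates. Their summed level ran from 11.27 to 11.94 in the brakeless and from 11.95 to 12.45 in the control arrays on the log2 scale. Z600 had the highest mean of the 5 in both groups (10.03 and 10.70), so it weighs heavily in that sum. All 5 had negative differences, where 50.3% of probe sets brighter than the median had positive ones, and 0 passed the test. The lowest was Sry-alpha at -1.03 (limma unadjusted p = 0.000407, adjusted p = 0.114). The groups did not overlap for nullo and Sry-alpha (2 of 5, against 10.1% of all probe sets). The blastoderm genes twi, sna and zen had median deviations of -0.37, -0.19 and 0.53 in the brakeless and 0.27, 0.18 and -0.41 in the control replicates. By that median, as for gt, brakeless replicate 3 was the highest and control replicate 3 the lowest array. Of the single genes only sna had this order, as twi was lowest on brakeless replicate 1 (6.68) and zen highest on control replicate 1 (8.33). The 3 muscle genes of older embryos that were measured (Mlc2, up and bt) had median deviations of -1.19, -0.32 and 0.32 in the brakeless and 0.59, 1.48 and -0.34 in the control replicates. All 3 had a lower brakeless mean, with a median difference of -0.80, and 0 passed the test. Their highest level was that of Mlc2 on control replicate 2, at 5.80. The list's summed level ran over 4.39 to 5.95 in the brakeless and 5.001 to 6.97 in the control arrays. The 6 ovary and eggshell genes stayed within 6.59 to 6.62 and 6.50 to 6.77 in their summed level, and the 6 cleared maternal transcripts within 13.55 to 13.78 and 13.39 to 13.69. The latter sum hides larger shifts of single genes. Control replicate 3 was the lowest array for 3 of the 6, with smg at 9.36 against 11.29 and 11.58 on control replicates 1 and 2. The genes gnu, png and plu were highest on that array. RMA values do not reach 0, so no marker was at 0. The part of these differences in the gap gene values was not tested.

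**Figure D4:**
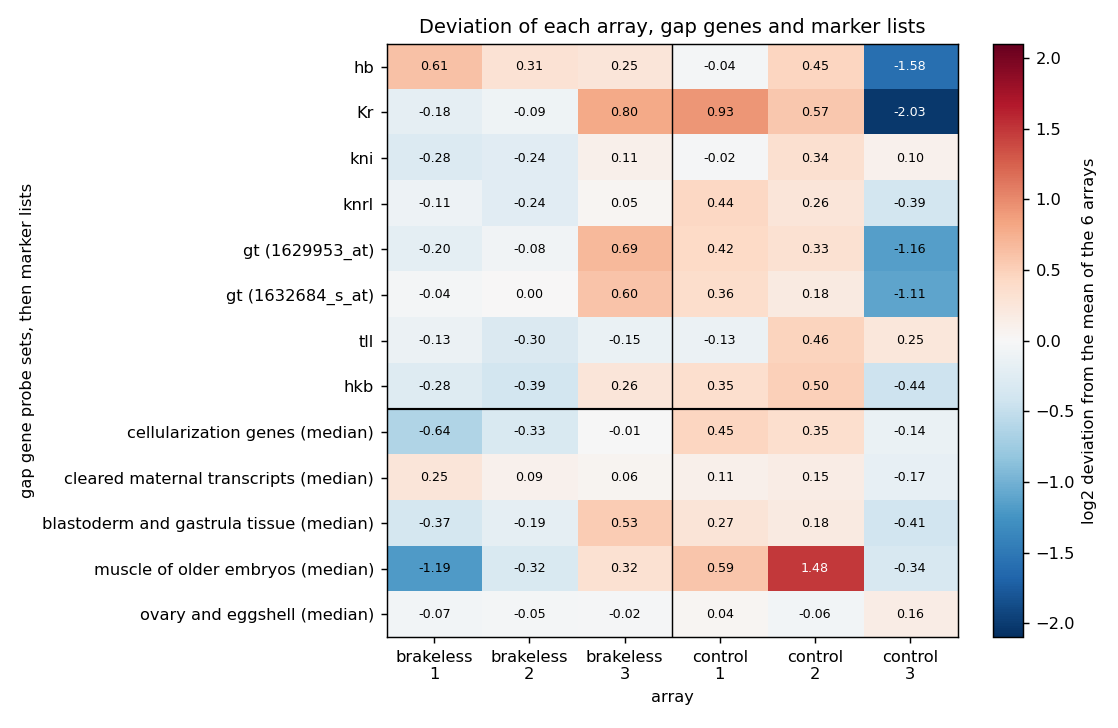
Log2 deviation of each array from the mean of the 6 arrays (colour and printed value) for the 8 gap gene probe sets above the line and for the median of each marker list below it, with the brakeless arrays on the left and the control arrays on the right. Control replicate 3 reads -2.03 for Kr and -1.58 for hb but 0.10 for kni and 0.25 for tll.

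For each gap gene, the genes with the most similar profile over the 6 arrays were sought among genes brighter than the median whose range was at least 0.8 times as wide. Likeness was the root mean square distance after centring each profile on its own mean, and since the genes were picked for it no test applies. Nearest to hb were SMC6, a subunit of a chromosome maintenance complex (0.0778 log2 units), Golgin97, a Golgi protein (0.0841), and Ltn1, a ubiquitin ligase of ribosome quality control (0.100). Nearest to Kr were hzg (0.0572), Sdc, which encodes the cell surface proteoglycan Syndecan (0.151), and nrv2, a sodium pump subunit gene (0.158). Nearest to gt were egr, which encodes the TNF ligand Eiger (0.0655), aos, which encodes the EGF receptor inhibitor Argos (0.115), and CG15480 (0.122). Nearest to hkb were phyl (0.0515), btd, the head gap gene buttonhead (0.0899), and CG15740 (0.0946). Like hkb, btd was lowest on control replicate 3, at 4.92, and highest on control replicate 2, at 5.99. The genes nearest to tll were CG9919 (0.0893), CG14764 (0.0915) and CG1998 (0.0987), and those nearest to kni were CG8785 (0.0787), CG4133 (0.0812) and CG7702 (0.0932). For the dim knrl they were CG12818 (0.0660), sfl (0.0720) and l(3)neo38 (0.0784).

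The genes that act before, beside and after the gap genes were compared in the same fit, with the brightest probe set of each gene, and genes without a probe set of a single symbol were not analysed here. None of them passed the test in either direction. Of the 10 measured maternal and early inputs, 9 had a higher brakeless mean, where 50.3% of probe sets brighter than the median did. Their median difference was 0.46, from -0.22 for tsl, which acts in Torso activation, to 0.95 for pum, a translational repressor of maternal hb (SE 0.67). In this list bcd, the anterior activator of hb, averaged 10.95 in the brakeless and 10.43 in the control arrays (difference 0.52, interval -0.18 to 1.21), and zld, the pioneer factor of early zygotic genes, averaged 9.69 and 9.003 (difference 0.69, interval -0.50 to 1.88). The groups did not overlap for trk alone of the 10, where 10.1% of all probe sets did not. Its difference was 0.42 (interval 0.12 to 0.73, limma unadjusted p = 0.0146, adjusted p = 0.730). Control replicate 3 was the lowest array for 7 of the 10. Without that array the median was 0.19, and 8 of the 10 kept a higher brakeless mean. Of the co-repressors, Gug, which encodes Atrophin, differed by 0.41 (interval -1.20 to 2.02), gro by 0.40, CtBP by 0.07 and HDAC1 by -0.50.

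The head gap genes, 6 measured, had a median difference of 0.18, from -0.29 for btd to 0.91 for ems. The groups did not overlap for ems alone of the 6 (limma adjusted p = 0.998), where 10.1% of all probe sets did not. Without control replicate 3 the median was -0.15 and ems read 0.42. The genes nub, pdm2 and D, which have gap-like domains, differed by -0.17, 0.40 and 0.10, and control replicate 3 was the lowest array for all 3. Without it their median turned from 0.10 to -0.36. Pair-rule genes, which read the gap gene pattern and set alternate segments, had a higher brakeless mean in all 5 that were measured, against 50.3% of probe sets brighter than the median. Their median was 0.21, from 0.01 for odd to 0.77 for prd (interval 0.04 to 1.497, limma unadjusted p = 0.0420, adjusted p = 0.998). Without control replicate 3 that median was -0.13 and prd read 0.69. The targets at the termini, byn, fkh, srp and fog, had a median of 0.26, from -0.03 for fkh to 0.59 for srp, and -0.16 without control replicate 3.

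**Figure D5:**
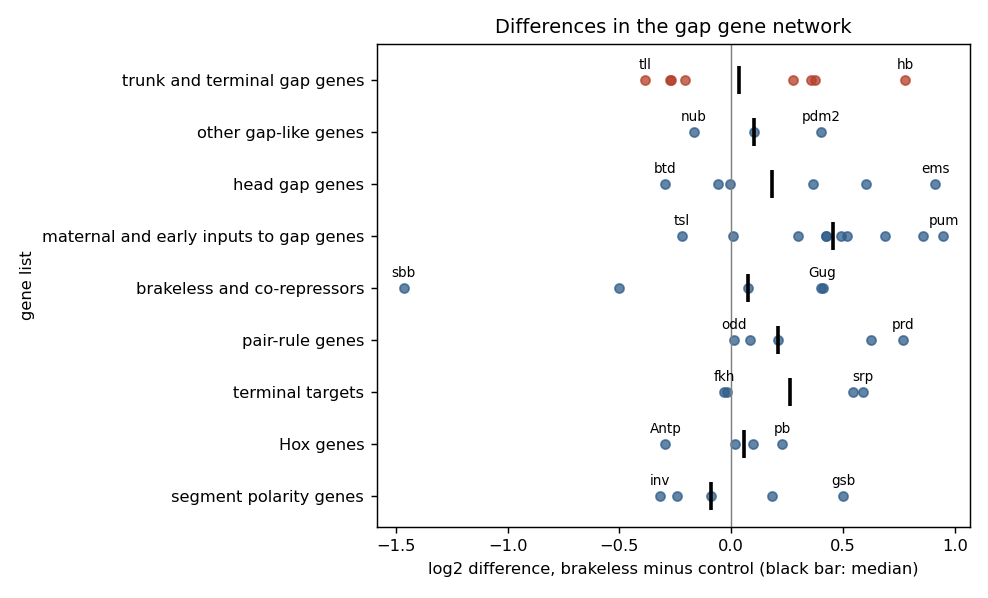
Log2 difference, brakeless minus control (horizontal axis), of the 8 gap gene probe sets (red) and of the genes of each related list (blue, brightest probe set per gene), with the list median as a black bar and the highest and lowest gene named. No gene shown passed the limma test over all probe sets, and the gap genes lie between -0.39 (tll) and 0.78 (hb).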

How the data were processed

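The authors deposited log2 expression values per probe set, normalized with RMA per the submitters' processing notes. Of RMA, neither version nor settings is given in the sources used here, nor is a genome build. RMA subtracts a background and equalizes probe intensities across arrays before it combines the probes of a set, so differences near background are compressed and a change in total RNA is hidden. Values ran from 1.98 to 14.5. Arrays have no read depth, and here their number (6) sets the precision.

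From 18952 probe sets, 183 Affymetrix controls were left out, and 18769 were tested between the groups by limma 3.58.1 under R 4.3.3 (functions lmFit and eBayes without covariates, two-sided, Benjamini-Hochberg over all of them). Intervals are 95% intervals of that fit. The labels call the samples biological replicates. The replicate number of control replicate 3 is that of its title, and its description gives another number.

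Every probe set of the 7 genes was named, then the 3 nearest profiles of each gene and, of each list, the highest and lowest gene. The members and lists were chosen with earlier results of these data known, and other genes were named after their values were seen. Positions are RefSeq's (Release 6 plus ISO1 MT), matched by gene number for all 7 genes. Probe sequences and positions were not used here. Simulated data were used to check the limma fit. Arrays of the groups with the same number by title did not deviate together (correlations of -0.40, -0.23 and -0.32), so the title numbers do not pair them. Figures were drawn with matplotlib 3.10.9.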

Additional observations from a re-analysis of the deposited data

How the results depend on the processing

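In every setting tried 0 gap gene probe sets passed the test, with at most 1 of 8 at an unadjusted p under 0.05 in limma, and their lowest adjusted p over all settings was 0.642 (knrl with array weights). That 1 was kni without brakeless replicate 3 (limma unadjusted p = 0.0473), tll without control replicate 1 and knrl without control replicate 3. Of 103 recomputed differences of single probe sets, 98 kept their sign and 5 turned: Kr and gt (1629953_at) with array weights, at -0.33 and -0.12, where control replicate 3 had the smallest weight (0.383), and Kr, gt (1629953_at) and gt (1632684_s_at) without control replicate 3, at -0.57, -0.23 and -0.0881. The cause was not tested. The 98 include settings that leave every difference as it was by construction, where no sign could turn. These are eBayes with trend and robust, both filters on low signal and the replicate block. Quantile normalization again moved Kr to 0.19, the gt probe sets to 0.13 and 0.24 and hkb to -0.41, and array weights moved hb to 0.47, knrl to -0.43, gt (1632684_s_at) to 0.00821 and hkb to -0.53. Centring each array on its median, or taking the mean of the gt probe sets, moved no difference by over 1.5 times. Leaving out each array in turn gave 0.18 to 1.199 for hb, -0.57 to 0.91 for Kr, -0.40 to -0.17 for kni, -0.45 to -0.04 for knrl, -0.23 to 0.55 and -0.09 to 0.65 for the gt probe sets, -0.55 to -0.25 for tll and -0.56 to -0.09 for hkb. Both filters on low signal, at the 40th and at the 60th percentile, dropped knrl. Over all probe sets limma called 26, against 46 with trend and robust and 74 with array weights, and 0 to 33 when 1 array was left out, the 0 being those without replicate 1 or 2 of the brakeless group (662 and 532 with an unadjusted p under 0.05) or without replicate 2 of the control group (1427). The replicate block gave 0 calls over all probe sets (678 at an unadjusted p under 0.05) and 0 among the gap genes, and no array correlated best with its own number.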

Other observations

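Homeotic and segment polarity genes, which lie downstream of the gap genes, were measured in part, and none passed the test. Of the homeotic genes, pb, Dfd, Scr and Antp had a median log2 difference of 0.06, from -0.29 for Antp to 0.23 for pb, and control replicate 3 was the lowest array for all 4. Without it the median was -0.21. Only 2 of the 4 were brighter than the median probe set (3.67). The others, pb and Scr, lay below it, so their readings have the limit given for knrl. Of the segment polarity genes, en, inv, hh, gsb and ptc had a median of -0.09, from -0.32 for inv to 0.50 for gsb. The mean level of inv lay below the median probe set (3.67) in both groups, so its reading has the limit given for knrl. The arrays of the groups did not overlap for inv, gsb and ptc (3 of 5, against 10.1% of all probe sets), and gsb averaged 7.16 ± 0.37 (SD, n = 3) in the brakeless group and 6.66 ± 0.07 (SD, n = 3) in the control group, with a limma unadjusted p of 0.0449 and an adjusted p of 0.998. Control replicate 3 was the lowest array for 2 of the 5.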
